A study of Mus musculus with 4 samples.

Results

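The genes described here are 10 genes of the Notch pathway, namely the receptors Notch1, Notch2, Notch3 and Notch4, the ligands Jag1 and Jag2, and the targets Hes1, Hey1, Hey2 and Heyl. They were taken by gene symbol from the 31829 gene names on the array, where 12 probes carry their names. Each of 8 genes has 1 probe, and Notch1 and Notch2 have 2 probes each. The study used the arrays to look for target genes of the tumor suppressor p53 that regulate myosin, in cells given the DNA-damaging drug doxorubicin, and the Notch pathway was not its subject. RNA of mouse embryonic fibroblasts (MEFs), which are connective tissue cells, was hybridized to one-color Agilent arrays. There was 1 array per condition, with 4 arrays on 1 slide. The conditions were p53+/+ (wild-type, WT) MEFs without doxorubicin, WT MEFs with doxorubicin, p53-/- MEFs without doxorubicin and p53-/- MEFs with doxorubicin. The labels and methods state no dose, no treatment time and no number of embryos or cultures for these arrays.

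Notch receptors are proteins of the cell surface that are activated by ligands of the Jagged and Delta-like families on neighboring cells. After binding, ADAM proteases and γ-secretase cut the receptor, and its intracellular part enters the nucleus, where it joins RBPJ and Mastermind-like proteins to activate genes. The HES and HEY genes are among its best known targets and encode transcriptional repressors. In mesenchymal tissue, NOTCH3 and HEYL are best known from the mural cells of blood vessels.

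A signal here is the background-subtracted brightness of a probe, and a level is that signal as a percent of the 75th percentile of its array. A gene was called measured in a comparison where its probe was marked well above background on the arrays compared. With 1 array per condition there is no replicate check, no p-value was calculated, and the number of arrays limits the precision. Position on the slide and condition cannot be told apart. Probes spotted 10 times on each array differed between spots with an SD of 0.11 for a log2 ratio of 2 arrays and 0.16 for a difference of 2 log2 ratios (253 probes), which covers technical error within an array only. A step of under 0.23 on the log2 scale between neighboring conditions was taken as within this spread. Errors given below as ± were calculated for a log2 ratio from the errors that the scanner program assigns to the signals on the 2 arrays.

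The labels were checked first. Trp53, which encodes p53, had signals of 1228 and 3442 in untreated and doxorubicin-treated WT MEFs, and of 442 and 543 in p53-/- MEFs. Its probe still gave signal in p53-/- MEFs, at a log2 ratio of -1.33 to WT MEFs without the drug. Cdkn1a, the p53 target that encodes p21, had log2 ratios of treated over untreated of 2.08 (WT) and 2.23 (p53-/-), with signals of 28619 and 105995 in WT MEFs and of 977 and 5912 in p53-/- MEFs. All 12 fibroblast markers were well above background on the 4 arrays, with a summed level between 597 and 931 times the 75th percentile. Of the markers of other cell types, those above the brightest negative control spot on every array were 8 of 8 for smooth muscle and pericytes, 1 of 8 for endothelium (Kdr), 2 of 6 for epithelium (Krt8 and Krt18), 3 of 6 for leukocytes (Itgam, Csf1r and Cd3e), 3 of 6 for neural and glial cells and 0 of 4 for skeletal myoblasts. From the lists other than that of skeletal myoblasts, Cdh5, Tie1, Epcam, Ptprc, Sox2 and Gfap were below it on every array. Others exceeded it on treated arrays, such as Krt5 at 951 and Cd68 at 211 in WT MEFs. Vwf was at 512 in treated WT and 519 in treated p53-/- MEFs. Among 153 negative control spots, the highest signal was 108 without and 77.5 with doxorubicin on the WT arrays, and 250.1 without and 120 with doxorubicin on the p53-/- arrays. Of the 10 genes, 9 were measured on all 4 arrays, and 6 of these also exceeded the brightest negative control on every array.

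Sequences are shown for the promoters of the receptor and the ligand that rose most in WT MEFs. The promoter of the target with an RBPJ motif and the probe that reads Notch1 are shown too. RefSeq promoter windows (GRCm38.p6) were at hand for 7 of the 10 genes, namely Notch1, Notch2, Notch3, Notch4, Jag1, Jag2 and Hey2. Each stretch holds the 250 bases before the start of the gene. Capitals mark the RBPJ core TGGGAA and the N-box CACNAG, which HES repressors bind, on either strand. Notch3 lies at chr17:32166891-32167140 on the minus strand, Jag2 at chr12:112929496-112929745 on the minus strand, and Hey2 at chr10:30842784-30843033 on the minus strand.
Notch3: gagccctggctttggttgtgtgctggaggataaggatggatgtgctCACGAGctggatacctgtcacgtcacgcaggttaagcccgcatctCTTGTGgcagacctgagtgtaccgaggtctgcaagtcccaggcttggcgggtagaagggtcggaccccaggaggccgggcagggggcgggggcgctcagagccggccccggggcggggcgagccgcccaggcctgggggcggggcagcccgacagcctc
Jag2: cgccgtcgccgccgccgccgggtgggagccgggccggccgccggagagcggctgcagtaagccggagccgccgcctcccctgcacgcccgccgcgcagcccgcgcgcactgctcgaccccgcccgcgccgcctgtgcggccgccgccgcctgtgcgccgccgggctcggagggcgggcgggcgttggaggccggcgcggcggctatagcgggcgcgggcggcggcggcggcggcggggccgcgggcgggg
Hey2: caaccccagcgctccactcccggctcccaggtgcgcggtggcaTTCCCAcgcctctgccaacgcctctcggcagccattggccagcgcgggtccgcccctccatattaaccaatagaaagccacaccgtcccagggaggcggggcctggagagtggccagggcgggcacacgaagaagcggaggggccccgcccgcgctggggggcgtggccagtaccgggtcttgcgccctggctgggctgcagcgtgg

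In windows that also hold the first 50 bases of each gene, the RBPJ core was found in 1 of the 7 genes, against 25.6% of 32851 promoters. That gene was Hey2, with matches starting 207 and 3 bases before the start. The second of these runs across the start and is not capitalized. The N-box was found in Notch1, Notch2 and Notch3, against 42.5% of promoters. In Notch3 its matches began 204 and 159 bases before the start. The E-box CACGTG was found in 0 of the 7 windows, against 7.15% of promoters, and the p53 half-site consensus in 0 of the 7, against 8.36%. No overlap between different motifs is counted here. The Jag2 stretch holds no capitals and is 87.2% G or C, compared with 68.8% for Notch3, 71.6% for Hey2 and a median of 52.4% over all promoters. These matches describe the letters in the window only.

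**Figure D1:**
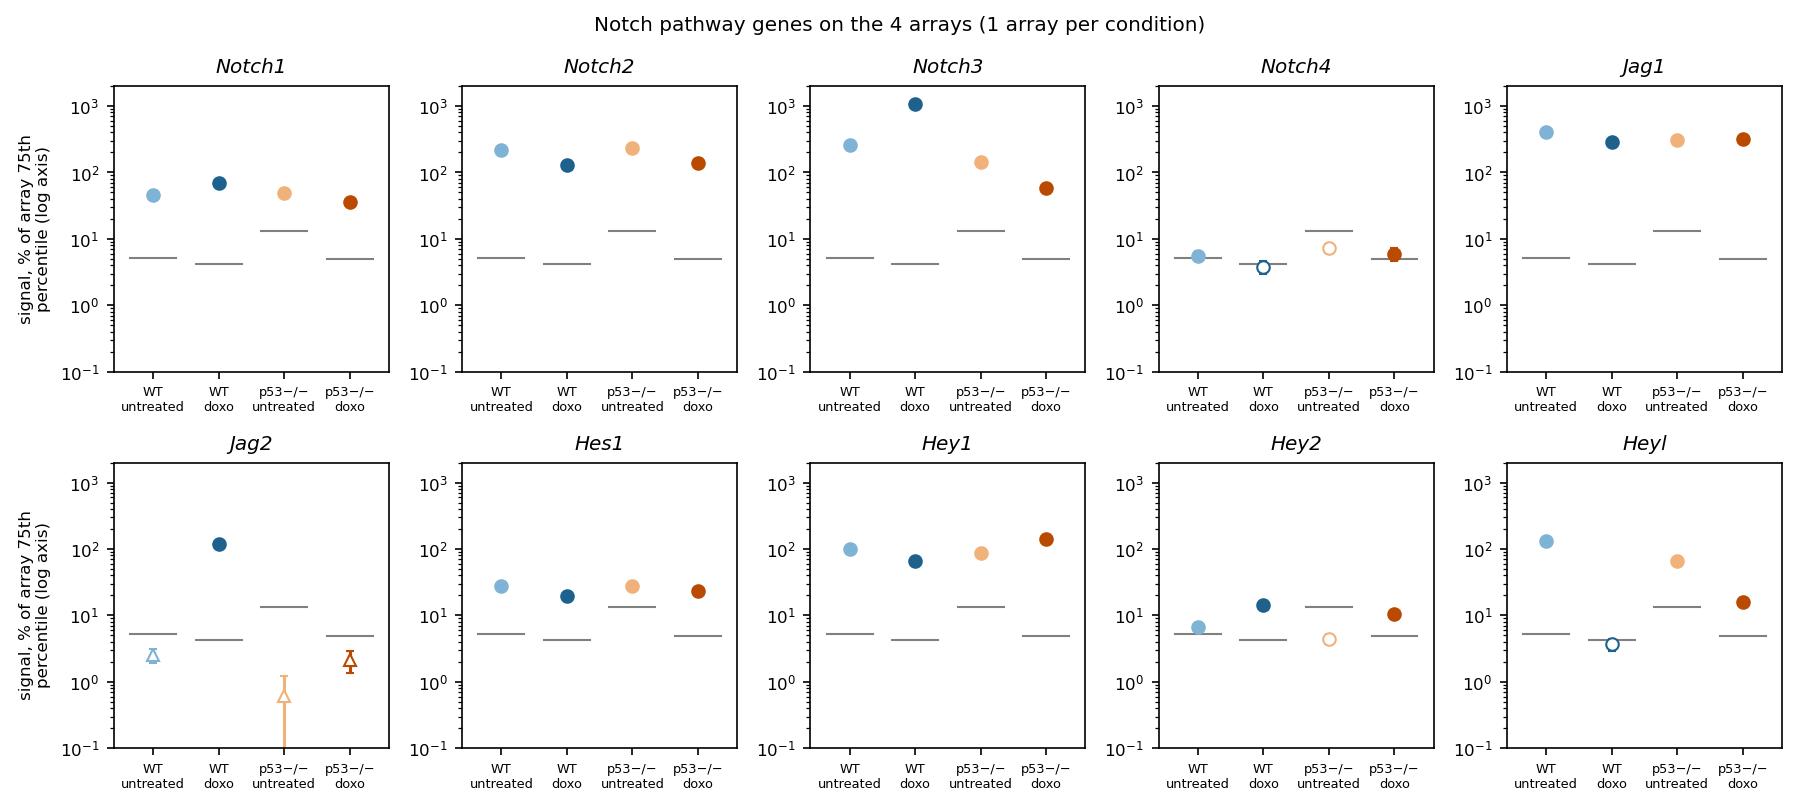
Level of each of the 10 genes on the 4 arrays, as a percent of the 75th percentile of the array (log axis). Bars are the errors of the scanner program, grey lines the brightest negative control spot, circles are signals well above background (open where below the grey line) and triangles are signals that are not. Notch3 and Jag2 were highest in doxorubicin-treated WT MEFs, and Heyl was lowest there.

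Among the receptors, Notch3 responded to doxorubicin in opposite directions in the 2 genotypes. It encodes the receptor of vascular smooth muscle cells and pericytes. Its probe lies at chr17:32257848-32257907 on the minus strand (mm9, the build of the array). The levels were 258% and 1062% in untreated and treated WT MEFs, and 146% and 58.5% in untreated and treated p53-/- MEFs. All steps in this order exceeded the spread between spots. The treated WT array was highest, the treated p53-/- array lowest, and the untreated arrays lay between them. Doxorubicin went with a 4.12-fold higher level in WT MEFs (log2 ratio 2.04 ± 0.20) and a 2.49-fold lower level in p53-/- MEFs (log2 ratio -1.32 ± 0.21). The difference of the ratios, WT minus p53-/-, was 3.36, and 59 of 16538 genes had a higher one. Of the same 16538 genes, 30 (0.181%) were at least 2-fold higher in WT MEFs and at least 2-fold lower in p53-/- MEFs, and Notch3 is 1 of them. Under doxorubicin Notch3 was 18.2-fold lower in p53-/- than in WT MEFs, and without the drug 1.77-fold lower. The 8 markers of smooth muscle and pericytes had a summed level of 432, 297, 470 and 286 times the 75th percentile in the order untreated WT, treated WT, untreated p53-/- and treated p53-/-. Among them, 2 of 8 were highest in treated WT MEFs as Notch3 was. They were Rgs5, with log2 ratios of 1.27 (WT) and 0.06 (p53-/-), and Des, with 0.22 and -0.76. The other 6 had ratios below 0 in WT MEFs. Of the 8 markers, 3 were at least 2-fold lower in WT MEFs, where 10.4% of all measured genes were. They were Myh11 (-2.44), Cspg4 (-1.59) and Cnn1 (-1.52). In p53-/- MEFs 6 of 8 were below 0. There 2 of 8, Myh11 (-2.70) and Cnn1 (-1.82), were at least 2-fold lower, against 6.89% of all measured genes. The part of the 8 markers in the Notch3 values was not tested.

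Notch1, the broadly expressed founding receptor, was read by a probe at chr2:26319440-26319499 (minus strand, mm9) within the coding part of the transcript. The sequence is shown because Notch1 has a second probe, which did not exceed the brightest negative control on any array.
Notch1 probe: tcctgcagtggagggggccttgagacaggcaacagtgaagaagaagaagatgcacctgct

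Its levels were 45.8% and 69.8% in untreated and treated WT MEFs, and 48.7% and 35.9% in untreated and treated p53-/- MEFs. The untreated arrays did not differ beyond the spread between spots, while the treated WT array was above them and the treated p53-/- array below. The log2 ratio of treated over untreated was 0.61 ± 0.21 in WT and -0.44 ± 0.21 in p53-/- MEFs, so neither reached 2-fold. Their difference of 1.05 was past 2-fold, but with normexp background correction it was 0.98, short of it. The other probe, at chr2:26314630-26314689 nearer the end of the transcript, had signals of 13.2, 41.7, 202 and 19.9 and was well above background in untreated p53-/- MEFs alone, where it stayed below the brightest negative control. When both probes were averaged, the difference became 3.30, a value set by signals at background.

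Notch2 had lower levels with doxorubicin in both genotypes, by a like amount and short of 2-fold. It encodes a receptor with wide expression in mesenchyme, and its probe lies at chr3:97953914-97953973 on the plus strand (mm9). The levels were 217% and 132% in untreated and treated WT MEFs, and 235% and 140% in untreated and treated p53-/- MEFs. Both treated arrays were below both untreated arrays, and within each pair the genotypes did not differ beyond the spread between spots. The log2 ratios were -0.72 and -0.75 (± 0.20 each), and their difference was 0.03. With scaling to the array median the p53-/- value was -1.05, past 2-fold. The other Notch2 probe (chr3:97951233-97951292) was not well above background on any array. When both probes were averaged, the ratios were -0.30 and -0.94 and their difference 0.64.

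Notch4, a receptor best known from endothelial cells, was near background. Its probe at chr17:34725120-34725179 (plus strand, mm9) had signals of 117 and 68.6 in untreated and treated WT MEFs and 136 and 144 in untreated and treated p53-/- MEFs. Signals in treated WT and untreated p53-/- MEFs were below the brightest negative control of their arrays. The log2 ratios were -0.58 ± 0.41 in WT and -0.28 ± 0.38 in p53-/- MEFs, and no order of the conditions is drawn from them. The endothelial markers were few as well, with 3 to 5 of 8 well above background per array.

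The ligand Jag2 was detected in doxorubicin-treated WT MEFs and on no other array. It encodes a Jagged ligand, and its probe lies at chr12:114146887-114146946 on the minus strand (mm9). Its signals were 52.9, 2186, 11.7 and 52.1 in untreated WT, treated WT, untreated p53-/- and treated p53-/- MEFs. The treated WT signal stood far above the brightest negative control of 77.5, and the other 3 signals were not well above background. In WT MEFs the level with doxorubicin was therefore at least 44.0-fold higher than without, taking the lowest signal called well above background as the limit on the untreated array, and at least 23.0-fold higher when the brightest negative control was taken instead. A gene was well above background in treated WT MEFs and not in untreated WT MEFs in 2526 cases, of which 40.7% had a bound of at least 2-fold and 16 a larger bound than Jag2. Under doxorubicin Jag2 was at least 33.4-fold lower in p53-/- than in WT MEFs, or at least 24.3-fold against the negative control. No ratio can be given within p53-/- MEFs. Shared sequence with the Jag1 probe was limited to a run of 11 bases, the longest between probes of different genes among the 10.

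Jag1, the other Jagged ligand, was bright on every array and differed little. Its probe at chr2:136907433-136907492 (minus strand, mm9) had levels of 405% and 282% in untreated and treated WT MEFs, and 306% and 319% in untreated and treated p53-/- MEFs. Untreated WT MEFs were highest, and the other 3 arrays did not differ from their neighbors beyond the spread between spots. The log2 ratio was -0.52 ± 0.20 in WT MEFs and 0.06 ± 0.20 in p53-/- MEFs, and the second value turned to -0.24 with scaling to the array median. Thus the ligands differed from each other in response, with Jag2 appearing in treated WT MEFs while Jag1 did not rise there under any scaling.

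Heyl was the target with the largest change. It encodes a HEY family repressor induced by NOTCH3 in mural cells, and its probe lies at chr4:122926975-122927034 on the plus strand (mm9). The levels were 130% and 3.66% in untreated and treated WT MEFs, and 65.4% and 16.0% in untreated and treated p53-/- MEFs. Both treated arrays were below both untreated arrays, and every step in the order exceeded the spread between spots. Heyl fell by 5.14 on the log2 scale in WT MEFs (± 0.35), that is to a level 35.4-fold lower, and by 2.03 in p53-/- MEFs (± 0.23), 4.08-fold lower. In WT MEFs 0 of the 17546 measured genes had a lower ratio, and with normexp background correction, where the ratio was -3.83, 9 had. The measured genes leave out those that fell to background in treated WT MEFs. Without a filter on dim probes, 9 of 31824 genes had a lower ratio. Heyl had no ratio in WT MEFs when signals had to exceed the brightest negative control. In treated WT MEFs its signal of 66.6 was under the brightest negative control of 77.5, and with that control in its place the level was 30.4-fold lower. The difference of the ratios was -3.12. Under doxorubicin Heyl was 4.37-fold higher in p53-/- than in WT MEFs, while untreated it was 1.98-fold lower.

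Heyl and Notch3 thus moved in opposite directions in WT MEFs and in the same direction in p53-/- MEFs. The 12 fibroblast markers did not all move one way. In WT MEFs 9 had ratios below 0 and 3 above. Of the 12, 5 were at least 2-fold lower there, against 10.4% of all measured genes. In p53-/- MEFs 9 were below 0 and 3 above, and 2 of the 12 were at least 2-fold lower, against 6.89%. Their median was -0.82 (WT) and -0.27 (p53-/-) on the log2 scale, and their summed level was 931, 728, 728 and 597 times the 75th percentile in untreated WT, treated WT, untreated p53-/- and treated p53-/- MEFs. Treated WT and untreated p53-/- MEFs thus had nearly equal sums, but single markers differed between these arrays in both directions. In this order the signals were 233 and 4172 for Pdgfra, 595 and 6819 for Lum, and 5450 and 30838 for Pdgfrb. Those of Thy1 were 170935 and 93588, and those of S100a4 were 33077.5 and 15925.8. Heyl was at 3.66% in treated WT and 65.4% in untreated p53-/- MEFs. The part of these markers in the result was not tested. In RNA of whole cultures, fewer cells of a type and less RNA per cell cannot be told apart.

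Hey1, a HEY family repressor that acts downstream of Notch in many tissues, was lowest in treated WT MEFs and highest in treated p53-/- MEFs. Its probe lies at chr3:8663432-8663491 on the minus strand (mm9). The levels were 98.5% and 65.6% in untreated and treated WT MEFs, and 86.2% and 143% in untreated and treated p53-/- MEFs. The untreated arrays did not differ beyond the spread between spots. The log2 ratios were -0.59 ± 0.20 in WT and 0.73 ± 0.20 in p53-/- MEFs, neither past 2-fold, and their difference was -1.31. Under doxorubicin Hey1 was 2.17-fold higher in p53-/- than in WT MEFs. Between the treated genotypes this is the reverse of the order of Notch3.

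Hey2, the HEY repressor known from heart and arteries, had higher values with doxorubicin on the arrays of both genotypes, near background in p53-/- MEFs. Its probe at chr10:30552729-30552788 (minus strand, mm9) had signals of 138 and 261 in untreated and treated WT MEFs, and of 84.4 and 258 in untreated and treated p53-/- MEFs. Both treated arrays were above both untreated arrays on the scaled level too. The log2 ratios were 1.11 ± 0.25 and 1.25 ± 0.32, just past 2-fold, and both fell short of 2-fold with scaling to the array median (0.84 and 0.95), quantile normalization (0.87 and 0.93) and normexp (0.81 and 0.69). The untreated p53-/- signal of 84.4 lay under the brightest negative control of 250.1, and with that control in its place the p53-/- ratio turned to -0.32, the log2 ratio of untreated p53-/- over untreated WT MEFs, -0.56 as measured, changed sign as well, and the difference of the doxorubicin ratios became 1.43. No direction is therefore established for Hey2 in p53-/- MEFs. The difference as measured, -0.13, also changed sign with normexp.

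Hes1, the most widely expressed HES repressor, differed little. Its probe at chr16:30067820-30067879 (plus strand, mm9) had levels of 27.4% and 19.9% in untreated and treated WT MEFs, and 28.2% and 23.2% in untreated and treated p53-/- MEFs. Treated arrays were lower in both genotypes, and the genotypes did not differ beyond the spread between spots at either treatment. The log2 ratios were -0.46 ± 0.21 and -0.28 ± 0.21. Among the 4 targets, then, Heyl fell past 2-fold in both genotypes, and Hes1 and Hey1 stayed within 2-fold. Hey2 was just past 2-fold higher in both with scaling to the 75th percentile. It was so in neither with the array median, quantile normalization or normexp. Once its dim signal was raised, the p53-/- ratio of Hey2 turned to -0.32, while its WT ratio stayed at 1.11.

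**Figure D2:**
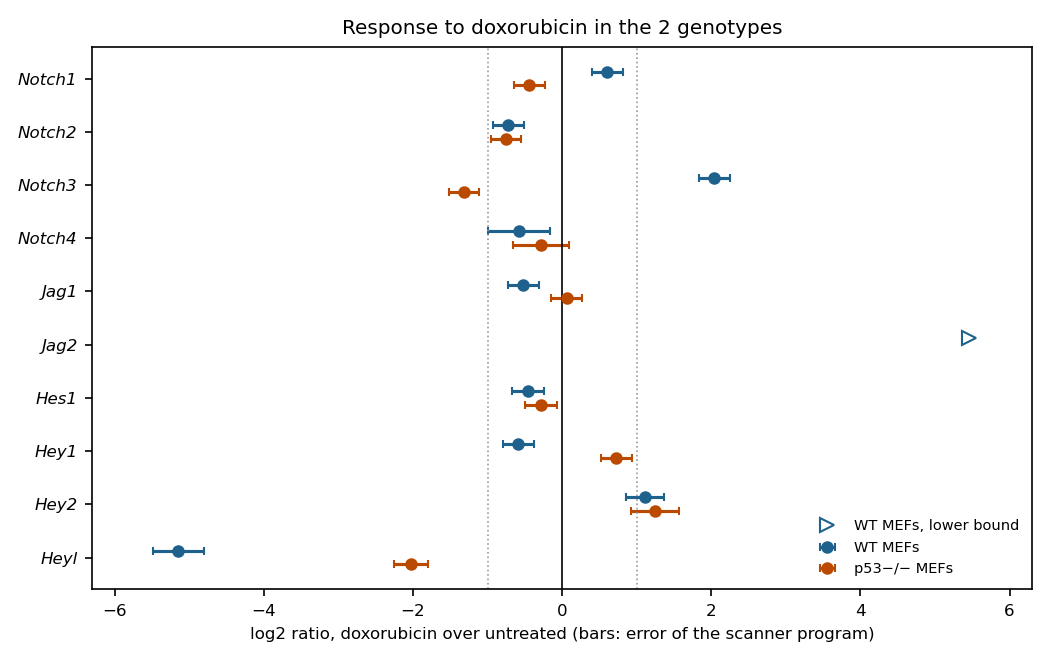
Log2 ratio of doxorubicin-treated over untreated MEFs for the 10 genes in each genotype. Bars are errors calculated from the signal errors of the scanner program, and dotted lines are at 2-fold. Notch1, Notch3 and Hey1 lie on opposite sides of 0 in the 2 genotypes, as does Jag1 at -0.52 (WT) and 0.06 (p53-/-). Heyl is at -5.14 in WT MEFs and -2.03 in p53-/- MEFs, and the open triangle is the lower bound for Jag2 in WT MEFs.

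As a group the genes did not move one way. In WT MEFs, Notch3 and Hey2 were at least 2-fold higher, 2 of 9 measured, where 11.0% of all measured genes were, and Heyl was at least 2-fold lower, 1 of 9, against 10.4%. In p53-/- MEFs, Hey2 was at least 2-fold higher, 1 of 9, against 9.24%, and Notch3 and Heyl at least 2-fold lower, 2 of 9, against 6.89%. In both genotypes Hey2 fell short of 2-fold with the array median, quantile normalization and normexp. For p53-/- MEFs no direction is established for it, because its untreated signal lay under the brightest negative control. The median log2 ratio of the 9 was -0.52 (WT) and -0.28 (p53-/-), while those over all measured genes were 0.01 and 0.00. Between untreated genotypes, 0 of 9 genes were at least 2-fold higher and 0 of 9 at least 2-fold lower in p53-/- MEFs, against 2.15% and 2.62% of all genes. Heyl came nearest, with a log2 ratio of -0.99. Between treated genotypes, Hey1 and Heyl were at least 2-fold higher in p53-/- MEFs, 2 of 9, against 11.9%, and Notch3 was at least 2-fold lower, 1 of 9, against 10.3%. The difference of the ratios was at least 2-fold toward WT MEFs for Notch1 and Notch3, 2 of 9, against 8.38%, and at least 2-fold toward p53-/- MEFs for Hey1 and Heyl, 2 of 9, against 9.86%. Notch3 and Hey1 were at least 1.5-fold higher in 1 genotype and at least 1.5-fold lower in the other, 2 of 9, against 2.88% of all genes. With so few genes these shares describe the named genes and no more. The comparisons share arrays, so their values are not independent of each other.

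**Figure D3:**
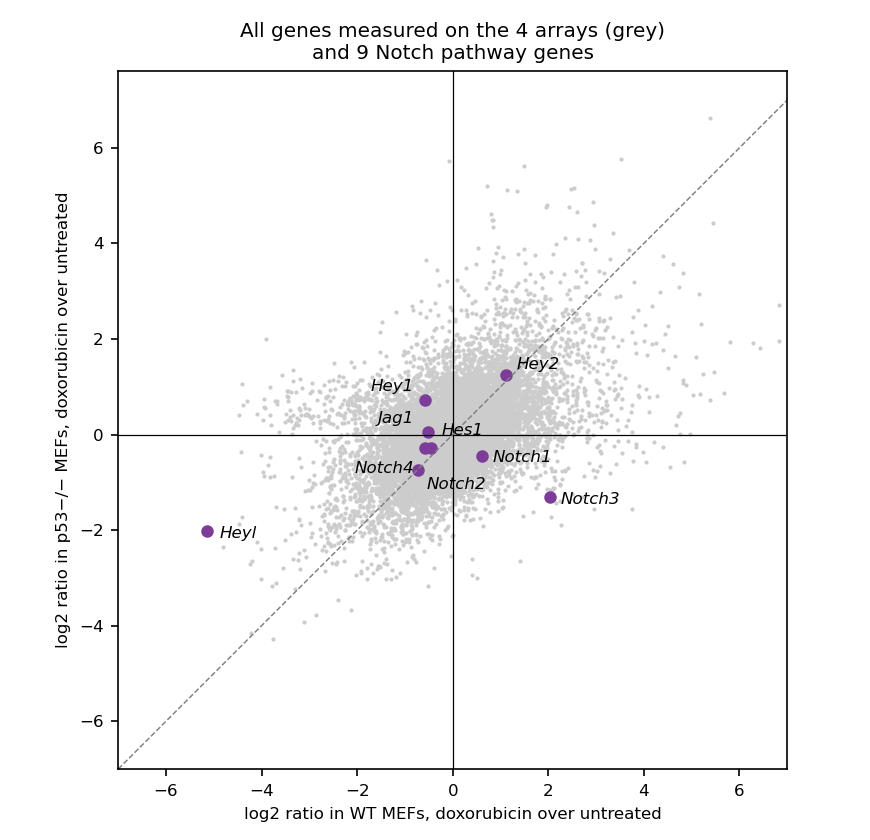
Log2 ratio of treated over untreated in WT MEFs (x) and p53-/- MEFs (y) for the 16538 genes measured on all 4 arrays (grey points) and the 9 measured Notch pathway genes (purple), with a dashed line where both ratios are equal. Heyl lies at the left edge of all genes, and Notch3 in the sparse lower right corner.

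The genes whose pattern was most like that of Notch3 and Heyl, the 2 genes with the largest difference of ratios, were sought among the 16538 genes by the Euclidean distance over the 4 log2 levels, each gene centered on its own mean. For Notch3 they were Tmem141 (distance 0.15), Nme4 (0.21) and Tbx6 (0.24). Tmem141 had log2 ratios of 2.10 (WT) and -1.12 (p53-/-), and Nme4 had 2.04 and -1.15. The Tbx6 signals of 155 and 95.5 in untreated and treated p53-/- MEFs were under the brightest negative controls. For Heyl the nearest were Cygb (0.51), Lum (0.75) and Meox1 (0.75). Lum, which encodes the matrix proteoglycan lumican and is 1 of the 12 fibroblast markers, had log2 ratios of -4.81 (WT) and -2.34 (p53-/-). The neighbors of Heyl were less close to it than those of Notch3 were to Notch3.

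The wider pathway was followed with 55 genes, of which 54 were on the array, 48 were measured on all 4 arrays and 2, Dll4 and Hes3, were well above background on none. In WT MEFs 4 of 48 were at least 2-fold higher and 4 at least 2-fold lower, with a median of -0.07 (log2). In p53-/- MEFs 1 was at least 2-fold higher and 4 at least 2-fold lower, with a median of -0.26. These shares are near or under the shares of all genes given above.

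Among other ligands, the Delta-like Dlk2, a non-canonical ligand, had a log2 ratio of 1.16 in WT MEFs and 0.30 in p53-/- MEFs, and its second probe gave 1.10 in WT MEFs. Dner, a ligand first described in neurons, had -1.20 in WT MEFs and -0.26 in p53-/- MEFs, and was lower in untreated p53-/- than in untreated WT MEFs by a log2 ratio of -1.11. The canonical ligand Dll1 was well above background with doxorubicin only, at a signal of 67.8 in WT and 312 in p53-/- MEFs. That of WT MEFs lay under the brightest negative control, and the log2 ratio of treated p53-/- over treated WT MEFs was 1.79, the reverse of the direction of Jag2. The γ-secretase subunits and ADAM proteases that cut the receptor were measured for 8 genes, and 0 of 8 passed 2-fold in either genotype, where 11.0% and 10.4% of all genes were past 2-fold higher and lower in WT MEFs, and 9.24% and 6.89% in p53-/- MEFs.

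The glycosyltransferases, which add sugars to the receptor and tune its choice of ligand, had higher ratios in WT than in p53-/- MEFs for 3 of 5 genes by at least 2-fold, against 8.38% of all genes. Poglut1, the O-glucosyltransferase, had log2 ratios of 1.42 and -0.37, and Rfng, a Fringe enzyme, had 1.04 and -0.34. Lfng, another Fringe, had 0.60 and -0.56. Pofut1, with -0.86 and -0.33, and Mfng, with 0.20 and 0.33 at signals near background, differed the other way by less than 2-fold, and the median of the 5 was 0.60 (WT) and -0.34 (p53-/-).

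Of the 13 regulators of endocytosis and ubiquitin, Fbxw7, the subunit of a ubiquitin ligase that marks active Notch for degradation, had log2 ratios of 1.55 (WT) and -0.59 (p53-/-). Dtx3l, a Deltex family ligase that is also an interferon-induced gene, had 0.86 (WT) and 3.40 (p53-/-), the highest ratio of the list in either genotype. Dtx1 had -1.14 and -0.84, but its signals of 74.7 in treated WT and 208 in untreated p53-/- MEFs were under the brightest negative controls, so both ratios have that limit.

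In the nuclear complex, Rbpj itself had log2 ratios of -0.30 (WT) and -0.49 (p53-/-), while its second probe gave 0.39 and -0.01. Maml2, a coactivator of the complex, was past 2-fold lower in both genotypes, at -1.36 and -2.06, and Maml3 in p53-/- MEFs at -1.65, though its treated signal of 118.7 was just under the brightest negative control of that array, 119.7. Tle2 had -1.59 in WT MEFs. Tle1 had -1.08 in p53-/- MEFs, but its other probes gave -0.39 and -0.78. Of the further targets, Hes2 and Nrarp were well above background in treated WT but not untreated WT MEFs, at signals of 325 and 174, with bounds of 2.71 and 1.81 on the log2 scale.

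**Figure D4:**
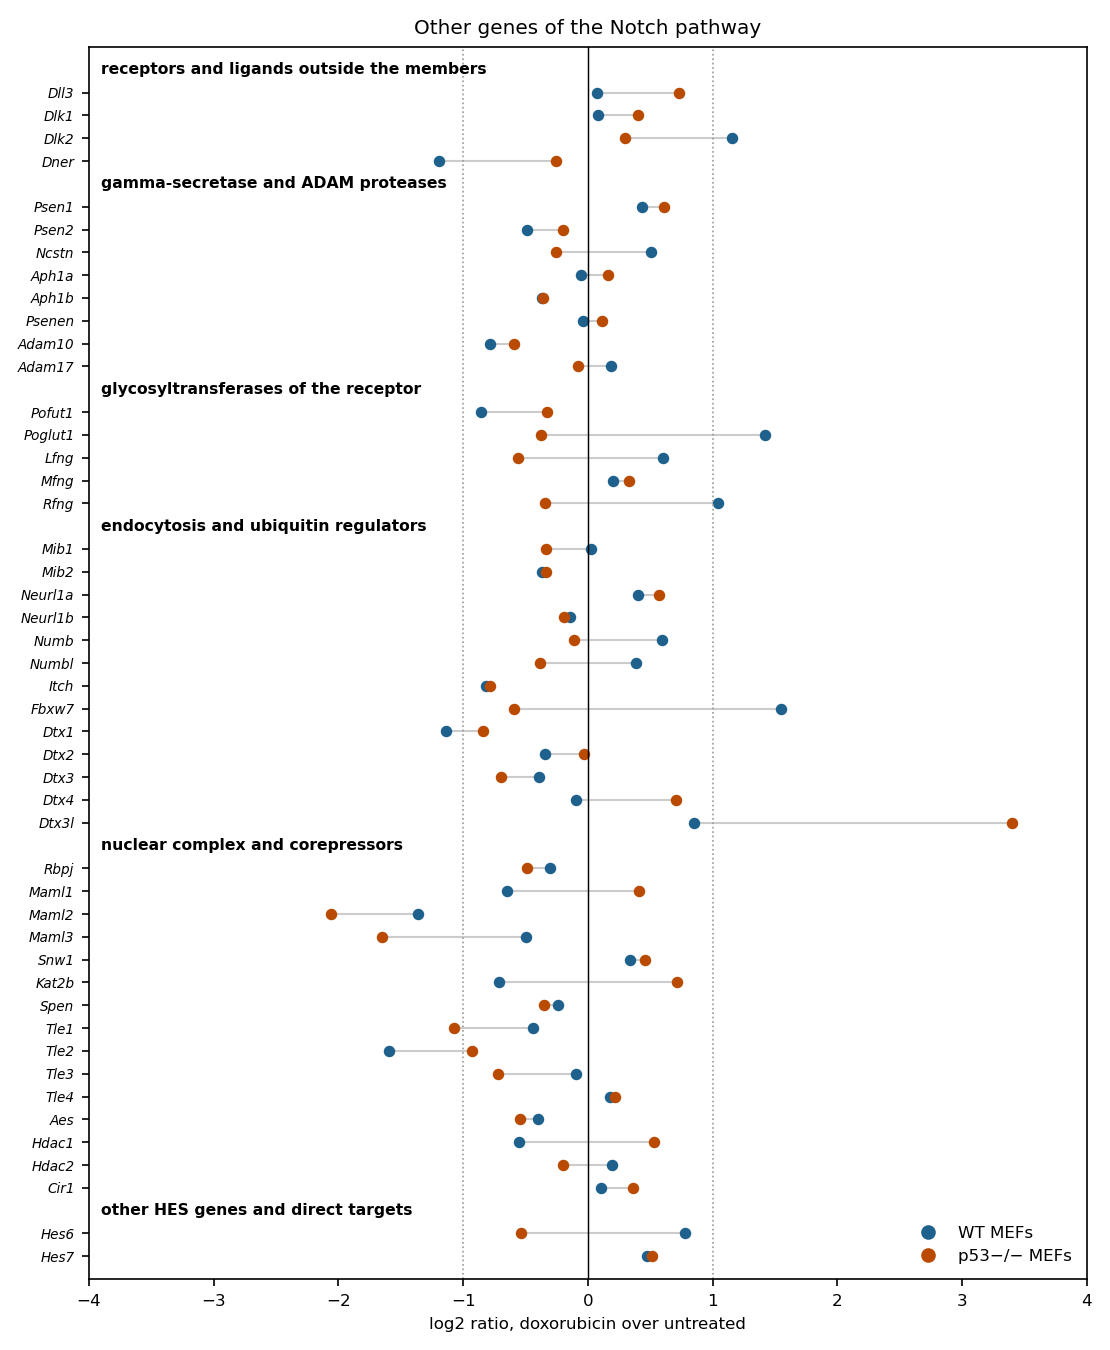
Log2 ratio of treated over untreated in WT MEFs (blue) and p53-/- MEFs (orange) for the other pathway genes measured on all 4 arrays and reported here, by group, with dotted lines at 2-fold and a grey line joining the genotypes of a gene. Fbxw7, Poglut1 and Rfng lie right of 0 in WT MEFs and left of 0 in p53-/- MEFs, and Dtx3l reaches 3.40 in p53-/- MEFs.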

How the data were processed

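The 4 arrays measured total RNA of MEFs of both genotypes with and without doxorubicin. The authors labeled the RNA with Cy3 and quantified the scans in Agilent Feature Extraction (release 10.7.3.1 per the file headers). The deposited intensity of a spot is background-subtracted and detrended within its array by that program, and is not normalized between arrays. Its flags (other columns per the file headers, coded 0 or 1) mark spots well above background, saturated or outliers. Its error model gave the errors of the signals, which were combined for log2 ratios. The deposited value table equals these intensities at every spot. The fold changes of the methods were not used.

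Between 145 and 168 outlier spots per array were dropped, and saturation was seen at 0 spots. Log2 intensities were averaged over repeat spots, and the 75th percentile of its array (signals of 2074, 1819, 1881 and 2421, in the order untreated WT, treated WT, untreated p53-/- and treated p53-/-) was subtracted over 39429 probes. Between 56.9% and 62.9% of probes were well above background, with lowest such signals of 56.7, 44.3, 57.9 and 87.1. The probe with the highest mean stood for a gene. Where 1 array was not well above background, a bound was set by its lowest signal so called or, if higher, by the signal of the dim probe itself.

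Genes were named by a rule: all 10 genes with every probe, the pathway genes at least 2-fold apart with doxorubicin, Trp53 and Cdkn1a, and the 3 genes most like each of the 2 with the largest difference. Dll1, Hes2, Nrarp, Lfng, Rbpj, Dll4 and Hes3 were named after their values were seen. Pofut1, Mfng and Kat2b, which are given with values as well, are also outside this rule. The genes and lists were chosen with earlier results of these data known. In the wider list, 2 genes were found under older names (Poglut1 as Ktelc1, Neurl1b as EG240055) and 1, Aph1c, was not matched. A gene of this list that is not reported here stays in its counts and medians. The alternatives tried were quantile normalization, scaling by array medians, normexp (limma 3.58.1 in R 4.3.3, offset 50), 3 other filters on dim probes, averaging all probes of a gene, the value table, and thresholds of 1.5-fold and 3-fold. Floors at the brightest negative control were added after seeing the data. With 1 slide, slide could not be used as a block. The steps were tested on simulated data. Python 3.11.15, numpy 2.4.6, pandas 2.3.3 and matplotlib 3.10.9 were used.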

Additional observations from a re-analysis of the deposited data

Results flagged for a closer look

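For 2 of the 9 genes measured on all arrays, doxorubicin went with a level at least 1.5-fold higher in 1 genotype and at least 1.5-fold lower in the other. These were Notch3, with a difference of log2 ratios of 3.36, and Hey1, with -1.31. In the wider pathway list the same held for Fbxw7, with a difference of 2.14, and for Kat2b, a histone acetyltransferase, with -1.42 (-0.71 for WT and 0.71 for p53-/- MEFs). Over all genes measured on the 4 arrays, 2.88% met the same limits. Hey1 missed the 1.5-fold limit in WT MEFs with quantile normalization (-0.58) and normexp (-0.54), and for p53-/- MEFs when arrays were scaled by their medians (0.43). Kat2b missed it with normexp (-0.48 for WT) and the array median (0.41 for p53-/-), and Fbxw7 with normexp (-0.57 for p53-/-), while Notch3 met it with each of these. With 1 array per condition these differences were not tested.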

How the results depend on the processing

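Scaling to the array median lowered all doxorubicin ratios, with a median over all genes of -0.27 in WT and -0.30 in p53-/- MEFs. The share of genes at least 2-fold higher and lower became 7.53% and 15.9% in WT MEFs and 5.63% and 12.4% in p53-/- MEFs. For the 10 genes, 47 values were computed again 374 times in all. Many of these could not move. The value table (47 values) equals the signals, and the 3 filters (45, 45 and 34 values) only decide which values are kept. Averaging probes cannot move a gene with 1 probe. Of the 374, 309 stayed within the spread between spots, 64 moved past it, and 1 value past 2-fold turned to the other direction. The 309 are therefore no measure of stability. The value that turned was that of Hey2 in p53-/- MEFs. It went from 1.25 to -0.32 when its untreated signal was raised to the brightest negative control. The same floor moved Notch4 in p53-/- MEFs to -1.16. Among smaller values, Jag1 in p53-/- MEFs turned to -0.24 with the array median and the Hey2 difference to 0.12 with normexp, which also moved Heyl to -3.83 in WT and -1.75 in p53-/- MEFs. With a 1.5-fold threshold, the number of the 10 genes past it rose from 3 to 6 in WT, from 3 to 5 in p53-/-, from 0 to 2 between untreated genotypes, and from 3 to 5 between treated genotypes. The Notch1 difference was 0.98 with normexp, which left 3 genes past 2-fold for the difference in place of 4. With a 3-fold threshold the number was 1 in p53-/- MEFs and 2 for the difference, in place of 3 and 4. Between untreated genotypes it was 1 with the array median, without a filter on dim probes, and with the mean of probes. For the wider list, the 1.5-fold threshold gave 17, 16, 6, 22 and 22 genes for WT, p53-/-, untreated genotypes, treated genotypes and the difference, in place of 8, 5, 1, 14 and 10, and the 3-fold threshold gave 1, 3, 0, 7 and 3. At 2-fold, 0 of 48 were higher and 1 lower between untreated genotypes, against 2.15% and 2.62% of all genes. Between treated genotypes, 7 of 50 were higher and 7 lower in p53-/- MEFs, against 11.9% and 10.3%. For the difference, 6 of 48 were higher and 4 lower, against 8.38% and 9.86%. Shares of all genes past 1.5-fold and 3-fold are not given here. The counts at these thresholds, for the 10 genes and the wider list, therefore show only their dependence on the threshold. The array median gave the wider list 9 genes in p53-/- MEFs. Its medians became -0.35 in WT and -0.55 in p53-/- MEFs, in place of -0.07 and -0.26. The mean of probes gave 3 genes in p53-/- MEFs, and normexp gave 0 between untreated genotypes. Apart from the settings named, the causes of these moves were not tested. No paired analysis was possible because each condition has 1 array. Dim signals limit Notch4, Hey2, the Jag2 bounds and the Heyl values that use treated WT MEFs. The Heyl ratio in WT MEFs was -4.93 with the floor at the brightest negative control.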
